A study of Homo sapiens with 12 samples.

Results

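A set of 8 genes that restrain or gate mTORC1, the growth-promoting kinase complex of the lysosome surface, was followed in NCI-H446 cells: DDIT4, SESN2, SESN3, DEPTOR, TSC1, TSC2, RRAGD and AKT1S1. They were taken by symbol, 8 of 34886 gene symbols in the mRNA tables, and all 8 were found. NCI-H446 is an established line of human small cell lung cancer, grown in culture. Cells received CAPE (caffeic acid phenethyl ester, an NF-kB inhibitor from propolis) at 40 µM for 8 h, or an equal volume of DMSO. The mRNA arm has 3 DMSO and 3 CAPE libraries, numbered 1 to 3. It is a single cell line, and the labels do not say whether replicates are separate cultures, so p-values measure only how far these samples spread, and that spread may be technical.

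As background, mTORC1 turns on protein synthesis and blocks autophagy when growth factors, energy and amino acids are sufficient. Growth factor signals reach it through the TSC complex, in which TSC2, held by TSC1, switches off the activating GTPase RHEB. DDIT4 (also called REDD1), induced by hypoxia and other stresses, acts through that complex. Amino acids reach it through the Rag GTPases, a branch that sestrins can block, SESN2 when leucine is short. DEPTOR and AKT1S1 (also called PRAS40) are proteins that bind mTORC1 and inhibit it. RRAGD encodes RagD, which pairs with RagA or RagB to bring mTORC1 to the lysosome, so it is a gate of the complex rather than an inhibitor.

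Library depth was 17569997 to 20917508 estimated counts. DMSO 3 stood apart from the other 5 libraries, with a scaling factor of 0.699 against 1.07 to 1.09 and 16207 genes detected against 17864 to 18587, so the fold change of each tested member is given with and without it. Neuroendocrine markers of the tumour type were largely missing apart from ENO2 (18.1 to 31.1 TPM in DMSO) and UCHL1 (17.4 to 24.3 TPM in DMSO). NEUROD1 and INSM1 were at 0 in every DMSO library and GRP in all 6. The 10 neuroendocrine markers summed to 43.0 to 49.4 TPM in DMSO and 153 to 161 TPM in CAPE, where ENO2 made up most. The 5 epithelial markers, led by KRT8, summed to 1315 to 2591 TPM in DMSO and 1149 to 1211 TPM in CAPE. Among these, EPCAM was low at 1.16 to 2.26 and 2.26 to 2.96 TPM, and CDH1 at 0.0364 to 0.173 and 0.0991 to 0.194 TPM. The sums in DMSO and CAPE were 14.1 to 51.0 and 50.0 to 59.8 TPM for 6 fibroblast markers, 24.0 to 26.4 and 28.7 to 34.8 TPM for 6 leukocyte markers, mostly CD68, and 1.58 to 4.06 and 1.10 to 3.46 TPM for 4 endothelial markers. DMSO 3 gave the highest epithelial and the lowest fibroblast sum. KRT8 was at 867, 826 and 1493 TPM in DMSO 1 to 3, and DCN, a fibroblast marker, at 22.3, 18.7 and 7.82 TPM. CD3E and KDR were at 0 in all 6 libraries. The part of these markers in the results was not tested, and in bulk RNA fewer cells of a type and less RNA per cell cannot be told apart.

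SESN2, which rose, is set here beside SESN3 (its paralogue), DDIT4 (the most abundant member) and TSC2 (the only tested member of the TSC complex among the 8). The promoters of these 4 of the 8 genes are shown. They are the bases just before the start site of each gene in RefSeq (GRCh38.p14), on the gene's own strand, 250 long or, for TSC2, the 150 bases between it and its neighbour NTHL1. Of the 8 genes, 5 had an entry, and TSC1, which could not be tested, is scanned but not shown. Capitals mark matches to any of 5 short motifs on either strand: TGATGNAA (C/EBP-ATF elements, bound by ATF4), ACGTG (the core of hypoxia response elements), GCGTG (a core shared by hypoxia and aryl hydrocarbon receptor elements), CACGTG (the E-box within TFEB and TFE3 elements) and GTAAACA (FOXO elements).
SESN2, chr1:28259268-28259517, plus strand: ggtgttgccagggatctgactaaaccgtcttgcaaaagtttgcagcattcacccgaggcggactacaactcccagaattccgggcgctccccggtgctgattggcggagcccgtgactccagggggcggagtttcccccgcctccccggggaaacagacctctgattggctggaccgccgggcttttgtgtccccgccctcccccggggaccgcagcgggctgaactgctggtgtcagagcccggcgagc
SESN3, chr11:95232476-95232725, minus strand: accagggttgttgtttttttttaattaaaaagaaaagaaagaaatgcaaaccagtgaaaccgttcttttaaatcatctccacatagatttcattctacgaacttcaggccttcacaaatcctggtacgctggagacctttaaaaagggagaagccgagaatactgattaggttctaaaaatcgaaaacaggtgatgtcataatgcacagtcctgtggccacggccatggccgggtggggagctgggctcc
DDIT4, chr10:72273674-72273923, plus strand: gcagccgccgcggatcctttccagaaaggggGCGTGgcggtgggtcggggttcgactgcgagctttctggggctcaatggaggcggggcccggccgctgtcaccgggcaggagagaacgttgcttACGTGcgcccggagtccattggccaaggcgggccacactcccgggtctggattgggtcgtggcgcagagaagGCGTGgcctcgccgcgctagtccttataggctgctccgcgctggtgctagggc
TSC2, chr16:2047835-2047984, plus strand: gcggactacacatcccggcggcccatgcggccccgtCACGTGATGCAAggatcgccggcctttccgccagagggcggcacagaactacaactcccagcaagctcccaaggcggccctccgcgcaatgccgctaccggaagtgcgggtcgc

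None of the 5 motifs lay in the windows of SESN2, SESN3 or TSC1. DDIT4 held ACGTG at 125 to 121 bases before its start, and GCGTG at 219 to 215 and at 53 to 49 bases before it. In TSC2 the letters CACGTGATGCAA held CACGTG at 114 to 109 and TGATGCAA, a form of TGATGNAA, at 110 to 103 bases before the start, so the matches overlap, and CACGTG also contains ACGTG on both strands. Over 35116 RefSeq promoter windows of 250 bases, 18.5% held ACGTG, 32.2% GCGTG, 6.34% CACGTG, 3.14% TGATGNAA and 2.98% GTAAACA. At 150 bases the shares were 12.6% for ACGTG, 4.57% for CACGTG and 1.90% for TGATGNAA. A match describes letters and is not a binding site, and a missing match says nothing of the factor.

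On the TPM scale, which divides by transcript length and so allows genes to be compared, the members spanned a wide range. DDIT4 was the most abundant at 599.8 ± 37.1 TPM in DMSO and 699.9 ± 44.6 TPM in CAPE (SD, n = 3), followed by AKT1S1 at 78.1 ± 21.2 and 58.8 ± 5.64 TPM. TSC2 (11.6 ± 7.80 TPM), SESN3 (4.62 ± 2.97 TPM) and SESN2 (4.35 ± 0.375 TPM) came next in DMSO, and each overlapped its neighbour in that order. TSC1 (1.06 ± 1.45 TPM) and DEPTOR (0.994 ± 0.353 TPM) overlapped as well, and RRAGD was lowest at 0.143 ± 0.0958 TPM. In CAPE SESN2 stood at 20.6 ± 0.737 TPM, overlapping TSC2 at 20.6 ± 3.73 TPM and above SESN3 at 6.67 ± 0.717 TPM, with no overlap with SESN3. TSC1 stood at 2.27 ± 1.61 TPM and overlapped DEPTOR. RRAGD was again the lowest in CAPE, at 1.04 ± 0.157 TPM, below DEPTOR at 1.25 ± 0.0451 TPM. That place is by group means: TSC1 was below RRAGD in DMSO 3 and in CAPE 3, so the ranges of TSC1 and RRAGD overlapped in both groups.

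SESN2 and RRAGD rose with CAPE, and no other member passed the test with all 6 libraries. The test was edgeR's quasi-likelihood test with Benjamini-Hochberg adjustment over all 13595 genes tested, at an adjusted p under 0.05. Thus 2 of the 8 were called higher and 0 lower, where 1.95% of all genes tested were called, 1.49% higher and 0.456% lower. RRAGD passed the filter on low counts only through the CAPE libraries, where it is high. Its calls in either fit and its lack of overlap therefore cannot be read against the shares in this paragraph. The same 2 of 8 were higher in CPM in every CAPE library than in every DMSO library, where groups did not overlap for 41.9% of all genes tested, 21.4% on the higher side. In TPM 5 of 8 did not overlap, DDIT4, SESN2, TSC2 and RRAGD higher and AKT1S1 lower with CAPE, beside 33.9% of all genes tested, 25.8% higher and 8.17% lower. Leaving out any single library other than DMSO 3 (DMSO 1, DMSO 2, CAPE 1, CAPE 2 or CAPE 3) left 0 members called, with 2 at an unadjusted p under 0.05 in edgeR each time. No member was lower at an unadjusted p under 0.05 either. The DESeq2 test with all 6 libraries called 2 members higher, SESN2 and RRAGD, and 0 lower. With DMSO 3 left out, edgeR called 3 of the 8 higher, SESN2, RRAGD and DDIT4. It called 0 lower, again with 0 lower at an unadjusted p under 0.05. That fit called 20.4% of 13919 genes higher and 20.8% lower, so a single call in it is common. TSC1 had too few counts in its row to be tested in either fit, which leaves 7 of the 8 tested. The shares above are over tested genes and so leave out TSC1.

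**Figure D1:**
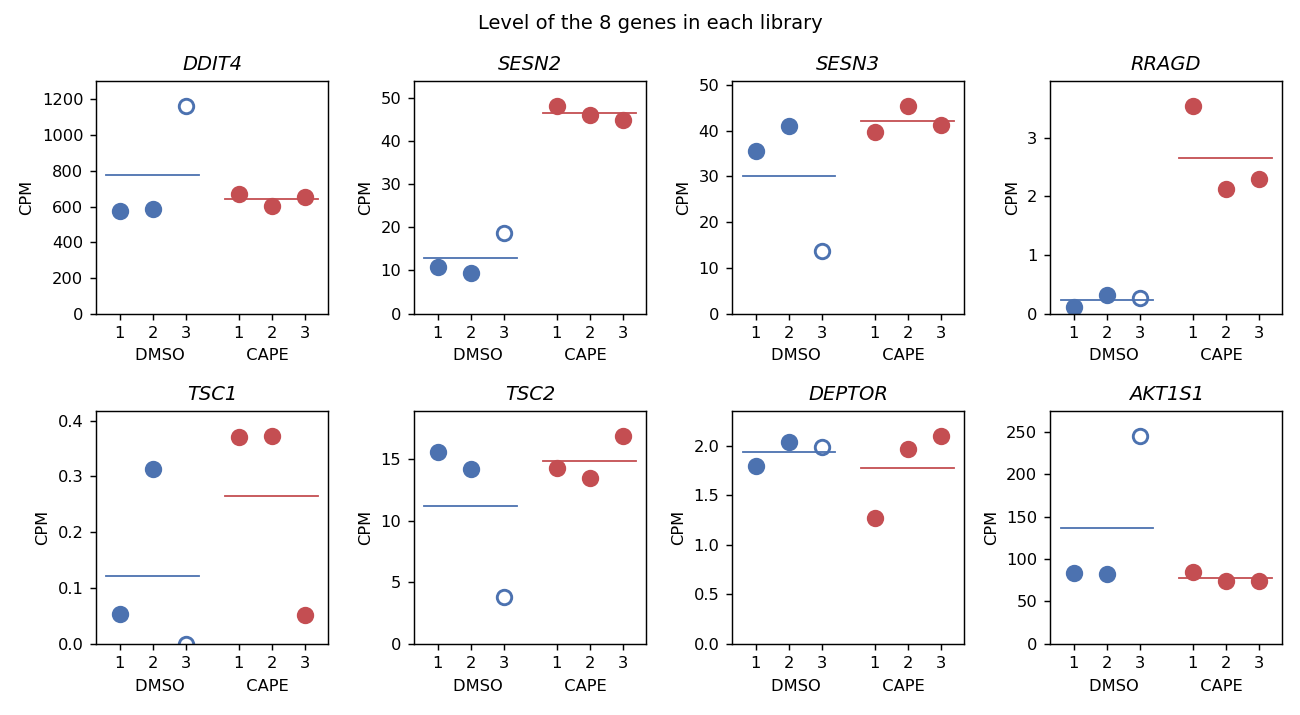
Level in CPM (counts scaled to library size, vertical axes from 0) of each of the 8 genes in the 6 libraries; points are libraries, lines are group means, and the open point is DMSO 3. SESN2 and RRAGD lie higher in every CAPE library than in every DMSO library, and DMSO 3 stands farthest from the other DMSO libraries for DDIT4, SESN2, SESN3, TSC2 and AKT1S1.

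SESN2 lies at chromosome 1, 28259518 to 28282491 (RefSeq, GRCh38.p14, as for all positions here). It encodes the sestrin best known as a leucine sensor, and it is a known target of ATF4 and p53. Scaled to library size, it measured 10.7, 9.45 and 18.7 CPM in DMSO 1 to 3 and 48.1, 46.0 and 44.9 CPM in CAPE 1 to 3. The CAPE libraries lay close together and well above all DMSO libraries, of which DMSO 3 was the highest. The log2 fold change was 1.84 (SE 0.29, edgeR adjusted p = 0.0405). Leaving out DMSO 3 gave 2.20 (SE 0.09, edgeR adjusted p = 6.31e-11). The 6-library call was lost when any other single library was left out, DMSO 1 (adjusted p = 0.161), DMSO 2 (0.134), CAPE 1 (0.225), CAPE 2 (0.202) or CAPE 3 (0.223), at log2 fold changes of 1.65 to 1.87. It was also lost under an offset for transcript length, at 1.57 (edgeR adjusted p = 0.106).

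RRAGD lies at chromosome 6, 89364616 to 89412273. RagD and its paralogue RagC are the partners that RagA and RagB need, and RRAGD is a known target of TFEB and TFE3. It had only 2, 6 and 4 counts in DMSO 1 to 3, against 67, 40 and 45 in CAPE 1 to 3. In CPM these are 0.105, 0.313 and 0.274 in DMSO and 3.54, 2.13 and 2.30 in CAPE, with no overlap. Its log2 fold change was 3.50 (SE 0.45, edgeR adjusted p = 0.0256), and 3.62 (SE 0.46, edgeR adjusted p = 1.71e-05) without DMSO 3. The summed counts, 152 in CAPE and 12 in DMSO, give a ratio of 11.7 per scaled library (95% exact Clopper-Pearson interval 6.48 to 23.1, counting error only). As with SESN2, the call was lost without DMSO 1 (adjusted p = 0.0972), DMSO 2 (0.101), CAPE 1 (0.177), CAPE 2 (0.158) or CAPE 3 (0.178), at log2 fold changes of 3.13 to 3.81. On log2(TPM + 0.5), which understates changes of low genes, limma-trend gave 1.27 with an adjusted p of 0.0507. With the smaller pseudocount, on log2(TPM + 0.1), limma-trend gave a larger change, 2.31, and did not pass either (adjusted p = 0.0977).

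DDIT4 lies at chromosome 10, 72273924 to 72276036. It measured 576, 584 and 1164 CPM with DMSO and 673, 603 and 653 CPM with CAPE. All CAPE libraries exceeded DMSO 1 and DMSO 2 and lay below DMSO 3, so the groups overlapped. Across 6 libraries the log2 fold change was -0.27 (SE 0.31, edgeR adjusted p = 0.605), and without DMSO 3 its sign turned and it rose by 0.15 (SE 0.05, edgeR adjusted p = 0.0196). In TPM, DMSO 3 was instead the lowest library for DDIT4, with 606, 634 and 560 TPM in DMSO and 742, 653 and 705 TPM in CAPE, and there the groups did not overlap. The limma-trend test on log2(TPM + 0.5) gave 0.22 and did not pass (adjusted p = 0.468).

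SESN3 lies at chromosome 11, 95165513 to 95232475. This sestrin is a known FOXO target. It measured 35.5, 41.1 and 13.8 CPM with DMSO and 39.6, 45.4 and 41.3 CPM with CAPE. DMSO 3 was low and the other 5 libraries overlapped. The log2 fold change did not pass with all 6 libraries, at 0.48 (SE 0.39, edgeR adjusted p = 0.476), or without DMSO 3, at 0.13 (SE 0.08, edgeR adjusted p = 0.202).

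**Figure D2:**
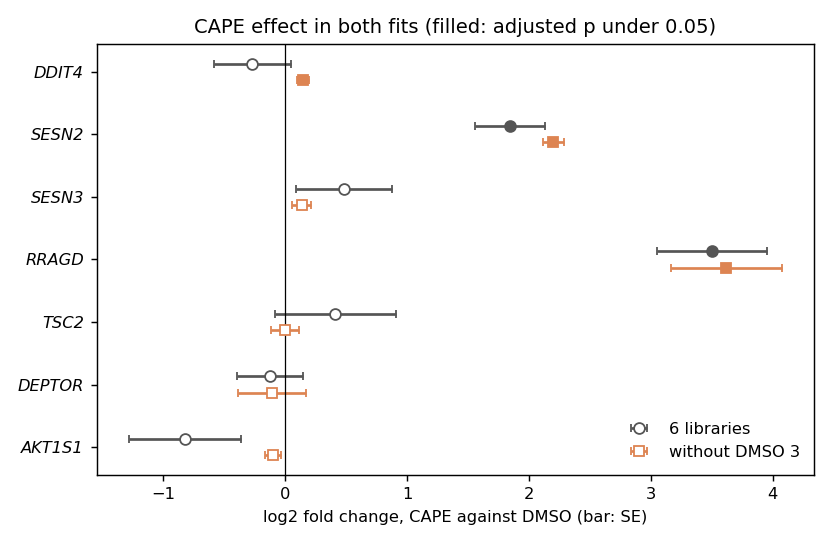
Log2 fold change of CAPE against DMSO (horizontal axis; bars are SE) for the 7 tested genes, with 6 libraries (circles) and without DMSO 3 (squares); filled symbols passed at an adjusted p under 0.05. SESN2 and RRAGD are filled in both fits, DDIT4 only without DMSO 3, where its sign turns from -0.27 to 0.15.

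The sestrin family was compared as shares of the summed TPM of SESN1, SESN2 and SESN3. SESN2 made up 20.9%, 19.2% and 50.1% of sestrin mRNA in DMSO 1 to 3 and 48.8%, 43.4% and 45.4% in CAPE 1 to 3. DMSO 1 and DMSO 2 thus lay far below the CAPE libraries, but DMSO 3 lay above all of them. The difference in mean share was 15.8 percentage points (exact two-sided permutation p = 0.40, and adjusted p = 0.40 over the 5 shares computed; 3 against 3 cannot go below 0.10). It was 25.8 points without DMSO 3, which moves the value by over 1.5 times. By the same measure SESN1 differed by -6.85 points (exact permutation p = 0.40, adjusted p = 0.40), or -2.59 as a share of summed counts. SESN3 made up 28.3%, 28.2% and 14.8% in DMSO and 14.04%, 15.9% and 14.4% in CAPE, so here too DMSO 3 lay among the CAPE libraries (difference -8.98 percentage points, exact permutation p = 0.20, adjusted p = 0.333), and its difference was -13.8 points as a share of summed counts. In DMSO 3 SESN1 was at 2.83 TPM and SESN3 at 1.20 TPM, both the lowest of the 6 libraries, while SESN2 itself was at 4.04 TPM against 4.77 and 4.23 TPM in DMSO 1 and DMSO 2. SESN1, the p53-induced sestrin, measured 13.8, 13.6 and 10.1 CPM with DMSO and 21.3, 23.2 and 22.2 CPM with CAPE, a log2 fold change of 0.83 that did not pass with 6 libraries (SE 0.18, edgeR adjusted p = 0.0961) and of 0.69 that passed without DMSO 3 (SE 0.09, edgeR adjusted p = 2.66e-05).

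**Figure D3:**
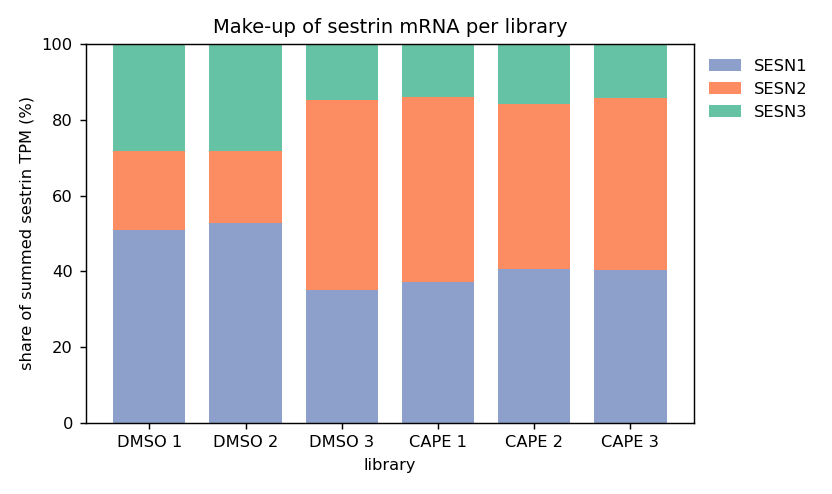
Share of SESN1, SESN2 and SESN3 in their summed TPM (vertical axis, percent) in each of the 6 libraries. SESN2 makes up 19.2% and 20.9% in DMSO 2 and DMSO 1 and 43.4% to 48.8% in CAPE, while DMSO 3, at 50.1%, resembles the CAPE libraries.

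The other paralogue pairs are RRAGD with RRAGC and DDIT4 with DDIT4L. RRAGD made up 0.295%, 1.71% and 2.15% of the summed TPM of RRAGC and RRAGD in DMSO, and 8.09%, 7.77% and 5.52% in CAPE. The CAPE shares were higher in all 3 libraries (difference 5.74 percentage points, exact permutation p = 0.10, the smallest this design allows, and adjusted p = 0.25), but RRAGC supplied most of the pair in every library. As a share of summed counts the RRAGD difference was 9.50 points. RRAGC itself measured 23.3 ± 2.50 CPM with DMSO and 23.0 ± 2.54 CPM with CAPE (SD, n = 3) and did not pass (log2 fold change -0.02, edgeR adjusted p = 0.958), nor did it without DMSO 3 (0.07, edgeR adjusted p = 0.596). DDIT4L, the paralogue of DDIT4 also called REDD2, measured 6.59, 7.21 and 6.02 CPM with DMSO and 1.90, 1.38 and 3.12 CPM with CAPE. Its groups did not overlap in CPM, where 20.6% of all genes tested were lower without overlap, but they overlapped in TPM. The log2 fold change was -1.63 and did not pass with 6 libraries (SE 0.33, edgeR adjusted p = 0.0805). DDIT4L fell by 1.69 without DMSO 3 (SE 0.24, edgeR adjusted p = 4.76e-05). DDIT4L was 0.558% ± 0.209 of the summed TPM of the pair in DMSO and 0.192% ± 0.0679 in CAPE (exact permutation p = 0.10, adjusted p = 0.25). That difference was -0.37 points, and -0.63 points as a share of summed counts.

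TSC2 lies at chromosome 16, 2047985 to 2089491, and TSC1 at chromosome 9, 132891349 to 132945378. TSC2, the subunit that acts on RHEB, measured 15.5, 14.2 and 3.76 CPM with DMSO and 14.3, 13.5 and 16.9 CPM with CAPE. Only DMSO 3 stood apart, and the groups overlapped. The log2 fold change was 0.41 (SE 0.50, edgeR adjusted p = 0.622) with 6 libraries and -0.002 (SE 0.11, edgeR adjusted p = 0.990) without DMSO 3. In TPM the groups did not overlap, with 17.7, 14.3 and 2.84 TPM in DMSO and 17.9, 24.9 and 19.1 TPM in CAPE. The limma-trend test on log2(TPM + 0.5) gave 1.11 for TSC2 and did not pass (adjusted p = 0.499). The counts given per TPM rise with the length of the transcripts to which reads were assigned. For TSC2 this ratio, relative to the median gene of the library, was 0.740, 0.836 and 0.487 in DMSO and 0.680, 0.471 and 0.763 in CAPE, so the assigned transcripts were shorter in DMSO 3 and CAPE 2 than in the rest.

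TSC1 had 1, 6 and 0 counts in DMSO and 7, 7 and 1 in CAPE. Counts of 0 in DMSO 3 allow up to 3 counts, or 0.205 CPM. The summed 15 against 7 counts give a ratio of 1.97 (95% exact interval 0.757 to 5.72, counting error only), and that interval spans equal levels, so no difference was detectable from these counts. Its counts per TPM were 0.0935 to 0.107 of the library median in the 5 libraries with a count, so its TPM rests on few reads assigned to very short transcripts. Whether reads of its main transcripts are counted in this row was not tested, and the values are not read as the level of the gene. TBC1D7, the remaining subunit of the TSC complex, did not pass at -0.60 (edgeR adjusted p = 0.397), and RHEB, its target, did not pass at -0.31 (edgeR adjusted p = 0.389), and neither passed without DMSO 3.

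DEPTOR lies at chromosome 8, 119873722 to 120050918, and AKT1S1 at chromosome 19, 49869033 to 49878356. DEPTOR had 34, 39 and 29 counts in DMSO and 24, 37 and 41 in CAPE, or 1.79, 2.04 and 1.98 CPM against 1.27, 1.97 and 2.10 CPM. The groups overlapped, and the log2 fold change was -0.12 (SE 0.27, edgeR adjusted p = 0.787), and -0.11 without DMSO 3 (SE 0.28, edgeR adjusted p = 0.780). The ratio of its summed counts, 102 in each group, was 0.921 per scaled library (95% exact interval 0.693 to 1.22, counting error only). AKT1S1 measured 84.0, 81.8 and 244.8 CPM with DMSO and 84.7, 73.9 and 73.7 CPM with CAPE. Apart from DMSO 3, all its libraries lay within 73.7 to 84.7 CPM. In TPM it stood at 66.2, 65.5 and 102.5 in DMSO and at 65.2, 56.2 and 54.9 in CAPE, where the groups did not overlap. The limma-trend test on log2(TPM + 0.5) gave -0.38 for AKT1S1 and did not pass (adjusted p = 0.498). The log2 fold change of AKT1S1 was -0.82 (SE 0.46, edgeR adjusted p = 0.357) and, without DMSO 3, -0.10 (SE 0.06, edgeR adjusted p = 0.225).

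DMSO 3 deviated in both directions among the members. Against the mean of DMSO 1 and DMSO 2 it was higher by 1.56 on the log2 scale in AKT1S1, 1.005 in DDIT4, 0.89 in SESN2 and 0.35 in RRAGD. It was lower in TSC2 (-1.95) and SESN3 (-1.47) and deviated by 0.05 in DEPTOR. Over all genes tested, sorted by counts per TPM into 10 bins, the median deviation went from 0.703 in bin 1 to -0.997 in bin 10. SESN3 (percentile 98.8) lies in bin 10 and shares its direction, whereas TSC2 (percentile 22.6) lies in bin 3, where the median was 0.551. SESN2 (percentile 76.6) and RRAGD (78.3) lie in bin 8, where the median was -0.341, and went the other way. DDIT4 (33.3) and AKT1S1 (51.3) lie in bins 4 and 6, with medians of 0.492 and 0.0279. The part of transcript length in these deviations was not tested.

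**Figure D4:**
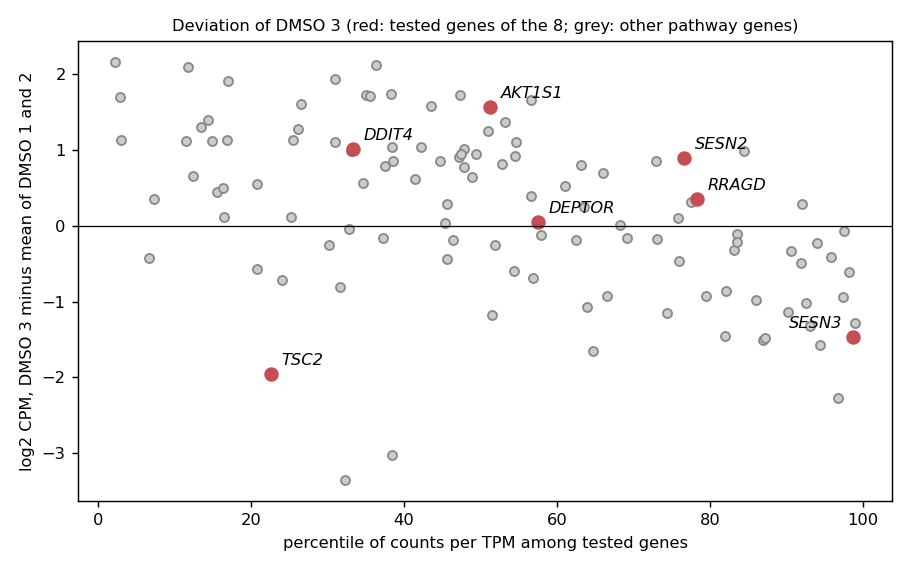
Log2 CPM of DMSO 3 minus the mean of DMSO 1 and DMSO 2 (vertical axis) against the percentile of counts per TPM, a measure of transcript length (horizontal axis), for the 7 tested genes (red) and the other listed pathway genes (grey). AKT1S1 (1.56) is the highest and TSC2 (-1.95) the lowest of the red points.

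The genes around the members were taken from lists of the mTORC1 pathway. Of 9 genes of mTOR complexes, assembly factors among them and not all of them in mTORC1, none passed with 6 libraries in edgeR. The median log2 fold change was -0.12 beside -0.01 over all genes tested, with 0 also at an unadjusted p under 0.05. MTOR, the kinase, measured 185 ± 30.0 CPM with DMSO and 174 ± 4.12 CPM with CAPE, and RPTOR, the scaffold of mTORC1, 69.3 ± 8.36 and 69.5 ± 2.73 CPM (SD, n = 3). Without DMSO 3 PRR5L, which is not a subunit of mTORC1, was higher (0.31, edgeR adjusted p = 0.00110). In the same fit MTOR (-0.22, edgeR adjusted p = 0.00161) and TELO2, an assembly factor (-0.21, 0.0112), were lower. RPTOR did not pass there (0.10, edgeR adjusted p = 0.180). For this and the following lists, the 5-library calls are to be read against 41.2% of all genes called, and a gene named with a 5-library value alone did not pass with 6 libraries. The 6-library calls of PRKAG2, IRS2, ULK1, GRB10 and DDIT3 below were all lost without CAPE 1 and without CAPE 3, since 0 genes passed in edgeR in either case, beside 1178 and 1099 at an unadjusted p under 0.05.

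Of 12 other genes of the Rag branch none passed with 6 libraries in edgeR, at a median of 0.12, and 0 had an unadjusted p under 0.05. RRAGA, which encodes a possible partner of RagD, measured 40.1, 41.6 and 87.9 CPM with DMSO and 74.1, 65.8 and 75.7 CPM with CAPE. Its log2 fold change was 0.35 with 6 libraries (edgeR adjusted p = 0.538) and 0.81 without DMSO 3 (SE 0.07, edgeR adjusted p = 3.91e-07). RRAGB did not pass in either fit. Without DMSO 3, FNIP2, a partner of folliculin, was also higher (0.41, edgeR adjusted p = 0.00412), and LAMTOR1, the lysosomal anchor, was lower (-0.35, edgeR adjusted p = 3.60e-04). In that fit 3 of the 12 were higher and 1 lower.

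Of 11 tested genes of GATOR and KICSTOR, the complexes through which sestrins act, none passed with 6 libraries in edgeR, at a median of -0.18, and 2 had an unadjusted p under 0.05. In the 5-library fit 2 were higher, NPRL2 (0.29, edgeR adjusted p = 0.0242) among them, and 2 lower, SEH1L (-0.41, 2.19e-04) and ITFG2 (-0.47, 0.00589). SEH1L is a subunit of GATOR2, the complex that sestrins bind. BMT2, the sensor of S-adenosylmethionine also called SAMTOR, was higher without DMSO 3 (0.72, edgeR adjusted p = 1.77e-04), but not with 6 libraries (0.97, edgeR adjusted p = 0.190). Of the 5 tested sensors and paralogues, SESN1 and DDIT4L included, 0 passed with 6 libraries in edgeR, at a median of 0.25, and 3 had an unadjusted p under 0.05. In the 5-library fit 2 were higher and 1, DDIT4L, was lower.

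Of 10 genes of RHEB, TBC1D7 and the energy sensor AMPK, 1 rose with 6 libraries, at a median of 0.22. This was PRKAG2, a regulatory AMPK subunit, at 7.74 ± 0.404 CPM with DMSO and 16.6 ± 0.423 CPM with CAPE (log2 fold change 1.10, SE 0.15, edgeR adjusted p = 0.0256). Without DMSO 3 it was higher by 1.08 (edgeR adjusted p = 1.66e-06), and PRKAA2, a catalytic AMPK subunit, by 0.51 (7.50e-06). In that fit 3 of the 10 were higher and 0 lower. Among 13 tested genes of PI3K-AKT input, with a median of 0.12, 1 rose, IRS2, an insulin receptor adaptor, at 41.8 ± 9.44 and 146 ± 5.10 CPM (1.80, SE 0.21, edgeR adjusted p = 0.0213), and 1.62 without DMSO 3 (edgeR adjusted p = 1.40e-11). TRIB3, a stress-induced inhibitor of AKT, measured 38.3, 45.2 and 132 CPM with DMSO and 129, 116 and 119 CPM with CAPE, so DMSO 3 lay above all CAPE libraries. It did not pass with 6 libraries (0.76, edgeR adjusted p = 0.388) and was higher by 1.53 without DMSO 3 (SE 0.07, edgeR adjusted p = 5.30e-10). In that fit 4 of the 13 were higher and 4 lower, IRS1 (-0.51, edgeR adjusted p = 2.63e-04) and PIK3CB (-0.25, 0.00671) among the lower.

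Of 13 tested substrates and effectors of mTORC1, 2 rose and none fell with 6 libraries, at a median of -0.14. ULK1, the kinase that starts autophagy and that mTORC1 inhibits, measured 80.3 ± 9.97 CPM with DMSO and 182 ± 4.003 CPM with CAPE (1.18, SE 0.15, edgeR adjusted p = 0.0256), and 1.07 without DMSO 3 (edgeR adjusted p = 2.02e-10). GRB10, an adaptor that dampens insulin signalling, measured 38.2 ± 2.71 and 90.3 ± 4.98 CPM (1.24, SE 0.14, edgeR adjusted p = 0.0209), and 1.18 without DMSO 3 (edgeR adjusted p = 2.34e-09). Without DMSO 3, 3 of 14 were higher and 5 lower, with LPIN1, a phosphatidate phosphatase (-0.61, edgeR adjusted p = 5.31e-05), and EIF4B, a translation initiation factor (-0.27, 7.64e-05), among the lower.

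Transcription factors known to drive members were listed as well. Of 13 tested, with a median of -0.05, 1 rose with 6 libraries, DDIT3, which encodes the stress factor CHOP, at 4.85 ± 0.726 CPM with DMSO and 22.2 ± 1.74 CPM with CAPE (2.20, SE 0.18, edgeR adjusted p = 0.0106), and 2.32 without DMSO 3 (edgeR adjusted p = 1.51e-09). ATF4 measured 359, 367 and 878 CPM with DMSO and 531, 513 and 526 CPM with CAPE. Its log2 fold change was -0.03 with 6 libraries (edgeR adjusted p = 0.964) and 0.52 without DMSO 3 (SE 0.04, edgeR adjusted p = 6.57e-08). In the 5-library fit 6 were higher and 4 lower, with NFE2L2 (-0.39, edgeR adjusted p = 8.85e-06) and HIF1A (-0.26, 2.49e-04) among the lower. The others higher there were EPAS1 (0.59, edgeR adjusted p = 1.65e-06), FOXO3 (0.50, 6.95e-06), TFE3 (0.30, 1.77e-04) and TFEB (0.34, 0.0202). FOXO1 (-0.55, edgeR adjusted p = 6.41e-04) and MITF (-1.32, 0.0409) were the others lower. Of 21 tested lysosomal targets of TFEB and TFE3, a list without RRAGD, none passed with 6 libraries in edgeR, at a median of -0.31, and 0 had an unadjusted p under 0.05. Without DMSO 3, 3 of the 21 were higher, SQSTM1, an autophagy receptor (0.24, edgeR adjusted p = 1.49e-04), and CTSD, a lysosomal protease (0.18, 0.0193), among them, and none lower, at a median of -0.01.

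**Figure D5:**
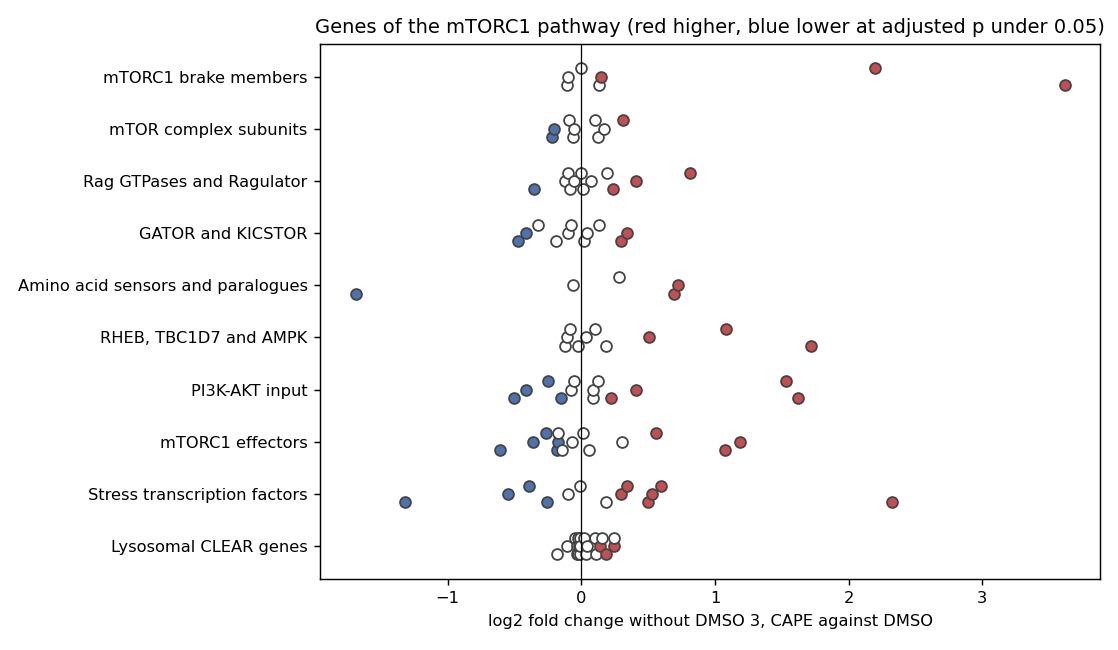
Log2 fold change of CAPE against DMSO without DMSO 3 (horizontal axis) for each tested gene of the members and of 9 pathway lists; red points were higher and blue points lower at an adjusted p under 0.05, open points did not pass. RRAGD (3.62), DDIT3 (2.32) and SESN2 (2.20) lie farthest to the right, and DDIT4L (-1.69) farthest to the left.

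The genes whose profiles lay nearest to each member were found by the Euclidean distance between centred log2 CPM over the 6 libraries, among 9266 or 9267 protein-coding genes. The nearest to SESN2 were GLRX, a glutaredoxin (distance 0.210), and GPT2, the mitochondrial alanine aminotransferase (0.322). To RRAGD they were ADM2, a secreted peptide (0.773), and PPP2R5B, a regulatory subunit of protein phosphatase 2A (0.932). For DDIT4 they were NFKBIA (0.0319) and ARHGEF1 (0.0724), for SESN3 MYO5A (0.0725) and KRR1 (0.0778), for TSC2 ZDHHC17 (0.152) and ZNF550 (0.206), and for AKT1S1 NELFB (0.0422) and GPKOW (0.0690). In these 4 members DMSO 3 deviated from DMSO 1 and DMSO 2 by more than the 5-library fold change, so the likeness is mostly in that library. DEPTOR, which varied little, had FKBP7 (0.299) and OMA1 (0.315). All distances share the same 6 libraries and carry no test.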

How the data were processed

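Only the mRNA tables were used; the 6 miRNA libraries were not analysed here. The authors deposited estimated counts per gene symbol, as whole numbers, and TPM values, made with bcl2fastq and kallisto 0.46.1 on GRCh38, per the submitters' processing notes; how transcripts were summed, and with which annotation, is not given in the sources used here. Each library lists some genes (32 to 65) at a positive TPM and no count, so the counts are rounded estimates. Counts were filtered with filterByExpr, scaled by TMM and tested in edgeR 4.0.16 under R 4.3.3 by its quasi-likelihood F test, with the group as the only term. CPM use TMM-scaled library sizes, log2 CPM a prior count of 2, and SE is the log2 fold change divided by the square root of F. Alternatives used limma 3.58.1 and DESeq2 1.42.0. The test was checked on simulated data.

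The members, lists and tests were chosen with earlier results of these data known. Named genes were the members, their paralogues and partners, and per list the up to 2 passing genes with the smallest p in each direction without DMSO 3, or the gene with the smallest p where none passed; nearest profiles needed an average log2 CPM of at least 3. Other list members are only counted, apart from the transcription factors that passed without DMSO 3. Not every gene chosen by these rules is reported here. Coordinates and promoters are from RefSeq, in which 26157 of 34886 symbols were found.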

Additional observations from a re-analysis of the deposited data

How the results depend on the processing

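Over 15 alternatives the direction of SESN2 and RRAGD held in all, and the call held in 8 for SESN2 (adjusted p 6.31e-11 to 0.225) and in 7 for RRAGD (1.81e-07 to 0.200). The count of members called higher, 2 as reported, ranged from 0 to 3 when a library was left out; it was 1 with the transcript-length offset and 1 with limma-trend on log2(TPM + 0.5) or log2(TPM + 0.1). No alternative called a member lower. Calls over all genes, 265 as reported, ranged over the single libraries left out from 0 (CAPE 1 and CAPE 3, with 1178 and 1099 genes at an unadjusted edgeR p under 0.05) to 5731 (DMSO 3), with 1022 by the DESeq2 Wald test, 5592 by limma-voom with sample quality weights, which gave DMSO 3 a weight of 0.0200, and 120 and 88 by limma-trend on TPM. With the replicate block, 0 genes and 0 members passed in edgeR, with 1384 genes and 2 members at an unadjusted p under 0.05; same-numbered libraries had correlations of deviations of -0.194, 0.140 and -0.0085, not every library correlated best with its own number, and the numbers were not taken as pairs.

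Signs turned only in members that were not called with 6 libraries. DDIT4, at -0.27, ranged from -0.45 to 0.15 over the libraries left out, positive without DMSO 3, and became 0.14 with limma-voom and 0.22 on TPM with either pseudocount. DEPTOR, at -0.12, ranged from -0.26 to 0.0649, positive without CAPE 1, and became 0.26 and 0.36 on TPM, and TSC2, at 0.41, ranged from 0.72 to -0.002, negative without DMSO 3, and became 1.11 and 1.17 on TPM. As shares of summed counts, the RRAGD difference was 9.50 percentage points in place of 5.74 and the DDIT4L difference -0.63 in place of -0.37, with SESN1 at -2.59 in place of -6.85, SESN3 at -13.8 in place of -8.98 and SESN2 at 16.4 in place of 15.8. Leaving out 1 library gave share differences of 10.4 to 25.8 points for SESN2, -12.4 to -3.61 for SESN1, -13.5 to -6.71 for SESN3, 5.198 to 6.55 for RRAGD and -0.49 to -0.30 for DDIT4L. Where the cause of a change is not fixed by how the alternative was built, the cause was not tested. Depth limits RRAGD in DMSO and DEPTOR.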
